A study of Mus musculus with 8 samples.

Results

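The subunits of the respiratory chain and of ATP synthase were compared between mast cells that had received a *Zc3h12a* ribonucleoprotein (RNP) and mast cells that had received a scrambled RNP. Members were all gene symbols of the *Nduf*, *Sdh*, *Uqcr*, *Cox4* to *Cox8* and *Atp5* families and the protein-coding genes of mitochondrial DNA, with a mean level of 1 CPM (counts scaled to a common total) or more over the 8 samples. Of 24059 symbols in the count files, 109 matched and 100 passed this level. Of these, 12 are encoded in the mitochondrial genome and 88 in the nucleus, of which 80 are subunits and 8 are assembly factors of complex I (*Ndufaf1* to *Ndufaf8*) that carry the same name stem. The files name the mitochondrial genes by their plain symbols (ND1, COX1, CYTB, ATP6), and these were recognised by their place on the mitochondrial chromosome. Just inside the level stood *Cox7a1* with 1.496 CPM, and just outside stood ND3 with 0.92 CPM.

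The cells were mast cells derived from bone marrow (BMMCs), grown from the marrow of C57BL/6 mice for at least 4 weeks with IL-3. They were transfected with Cas9 bound to crRNAs against *Zc3h12a*, which encodes the RNA-cleaving protein Regnase-1 (labelled *Zc3h12a* KO), or to a non-targeting crRNA (labelled *Zc3h12a* WT), and were kept in culture without stimulation for 1 week. The cells came from 4 mice, each group held 4 samples numbered 1 to 4, and samples of the same number were treated as a pair, although the labels do not say that a number marks a mouse. The edited cells were pools and not clones, so a share of unedited cells can remain, and fewer edited cells cannot be told apart from a smaller difference per cell.

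Complexes I to IV pass electrons from NADH and succinate to oxygen and, except for complex II, pump protons across the inner mitochondrial membrane, and complex V uses the returning protons to make ATP. Mitochondrial DNA encodes a few hydrophobic core subunits of complexes I, III, IV and V, which are transcribed together as long precursors by a dedicated polymerase. All other subunits, and complex II as a whole, are transcribed in the nucleus, so that 2 genomes have to supply parts of the same machines. Mast cells draw on both glycolysis and respiration, and respiration has been linked to their degranulation.

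The total count was 19610240 to 33986762 per sample, and 14934 genes were left after edgeR had removed those with low counts. Summed mast cell markers (12 genes, led by *Cpa3*) reached 55534 to 64909 CPM with scrambled RNP and 52562 to 56087 CPM with *Zc3h12a* RNP, and were lower in 3 of 4 pairs. Markers of neutrophils summed to at most 0.333 CPM, of B cells to 2.71, of T cells to 5.62 and of macrophages and monocytes to 10.2 CPM in any sample. Erythroid and platelet genes summed to 1266 to 2031 CPM, nearly all of it *Itga2b*, and basophil genes to 538 to 638 CPM, with *Cd200r3* the most abundant. The targeted mRNA was at 24.9 to 39.3 CPM with scrambled RNP and 26.8 to 41.1 CPM with *Zc3h12a* RNP, so its level gave no check of the labels.

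The members encoded in mitochondrial DNA were lower after *Zc3h12a* RNP, whereas those encoded in the nucleus were on both sides of no difference. The fitted log2 fold change was below 0 for 12 of 12 mitochondrial members, with a median of -0.37, and for 29 of 80 nuclear subunits, with a median of 0.03. Over all genes tested the median was 0.04, and 6299 of 14934 genes were below 0. The 12 mitochondrial members are transcribed together as long precursors, so they are not 12 independent observations. The difference of the medians, mitochondrial minus nuclear subunits, was -0.40 on the log2 scale.

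No single member passed the test across all genes. In edgeR's quasi-likelihood fit, blocked by replicate number, with Benjamini-Hochberg adjustment, 0 of 100 members were called at an adjusted p at or under 0.05 and a log2 fold change beyond 0.5, as were 0% of all genes tested. At any fold change the adjusted p was also passed by 0 members and by 0% of genes. The lowest adjusted p among members was 0.427, for ATP6. The Wald test of DESeq2, blocked likewise, passed 4 members, ND1, CYTB, ND2 and COX1, with adjusted p of 0.00615, 0.0127, 0.0319 and 0.0334, where it passed 0.502% of all genes.

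At an unadjusted p at or under 0.05 in edgeR's test, 15 members were lower and 1 was higher, where 4.08% of all genes were lower and 2.12% higher. The lower ones were 10 of the 12 mitochondrial members and 5 of the 88 nuclear ones, *Cox7a2l*, *Ndufa6*, *Uqcrb*, *Ndufa1* and *Uqcrh*, and the higher one was *Atp5k*. Among nuclear members alone, 5 of 88 lower and 1 of 88 higher are near these shares, so nothing is read from their number. Since the mitochondrial members share precursors, the counts of them in this paragraph are not counts of independent genes. Among all members 19 were lower in 4 of 4 pairs (8 mitochondrial and 11 nuclear) and 2 were higher in 4 of 4 pairs, where the shares over all genes tested were 8.54% and 4.98%. The 2 groups of samples did not overlap at all for 8 mitochondrial members and for *Cox7a2l* and *Ndufa6*, each lower after *Zc3h12a* RNP, where 0.663% of genes were separated in this direction and 0.261% in the other. The 16 members at this unadjusted p became 7 without replicate 1, 9 without replicate 4 and 9 with no replicate block, and the split turned to 10 higher and 5 lower without replicate 2. Without replicate 3 it was 13, all of them lower. The shares of all genes at this p are given for the main fit only, so these counts have no background beside them. Without replicate 2, 156 of 15082 genes passed the adjusted p, where 0 of 14934 did in the main fit.

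**Figure D1:**
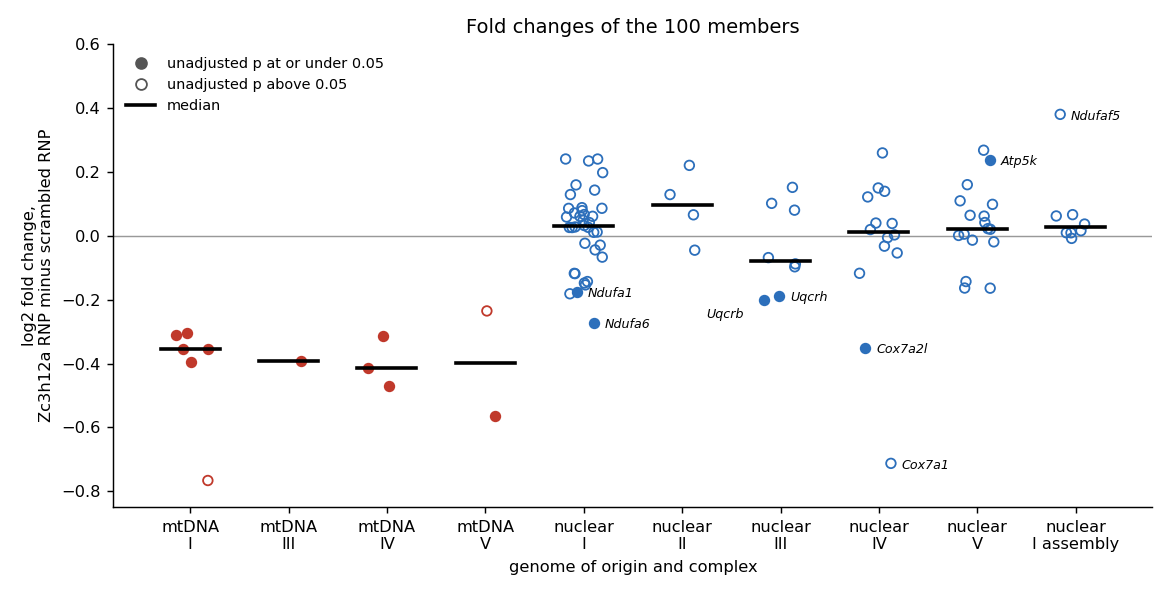
Log2 fold change of each member (y axis) by genome of origin and complex (x axis), with filled points at an unadjusted p at or under 0.05 in edgeR's quasi-likelihood test, open points above it, and a bar at the median of each group. All 12 mitochondrially encoded points lie below 0, with medians of -0.36 to -0.42 in the 4 complexes, while the medians of the nuclear groups lie between -0.08 and 0.10.

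The 6 mitochondrial genes with the most counts held 99.8% of all counts from the organelle in each sample. They were ND1, ND2, ND4 and ND5 of the proton-pumping membrane arm of complex I, CYTB, the cytochrome b of complex III, and COX1, the subunit of complex IV that holds the site of oxygen reduction. COX1 (positions 5328 to 6872 of the mitochondrial genome, GRCm39) was at 15288, 15438, 15002 and 15527 CPM in scrambled RNP samples 1 to 4 and at 13206, 12681, 12048 and 11374 CPM in *Zc3h12a* RNP samples 1 to 4. Every *Zc3h12a* RNP sample lay below every scrambled RNP sample, and the mean went from 15314 ± 230 to 12327 ± 792 CPM (SD, n = 4), which the fit gave as a log2 fold change of -0.32 ± 0.085 (SE, adjusted p = 0.530, edgeR's quasi-likelihood test).

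CYTB (14145 to 15288) was at 8417, 9415, 10768 and 8667 CPM in scrambled RNP samples and at 7748, 7748, 7171 and 5778 CPM in *Zc3h12a* RNP samples. The groups did not overlap, and the log2 fold change was -0.39 ± 0.11 (SE, adjusted p = 0.560, edgeR's quasi-likelihood test). ND1 (2751 to 3707), which lies at the joint of the membrane arm and the peripheral arm of complex I, was at 7732, 7951, 8329 and 6780 CPM against 5934, 5913 and 4923 CPM in *Zc3h12a* RNP samples 2, 3 and 4 and 6718 CPM in sample 1. Here too the groups were apart, by the small step between 6780 and 6718 CPM, and the log2 fold change was -0.40 ± 0.088 (SE, adjusted p = 0.443, edgeR's quasi-likelihood test).

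ND2 and ND4 were separated in the same way. ND2 was at 3281 to 4207 CPM with scrambled RNP and 2505 to 3034 CPM with *Zc3h12a* RNP, and ND4 at 1934 to 2140 against 1501 to 1809 CPM. ND5, a large membrane-arm subunit, was at 5387, 6014, 7483 and 6213 CPM against 5513, 5125, 4593 and 4342 CPM, so that the pair numbered 1 went the other way by 0.03 on the log2 scale and the groups overlapped. The log2 fold changes were -0.36 for ND2, -0.31 for ND4 and -0.35 for ND5, with lowest unadjusted p of 0.00846 for ND4. ND6, the only one of these genes transcribed from the light strand, had far fewer counts, with 55.3, 39.6, 39.8 and 50.3 CPM against 44.7, 41.8, 29.5 and 34.2 CPM. Its log2 fold change was -0.30, with a lower value in 3 of 4 pairs and overlapping groups. ND6 transcripts lack a long poly(A) tail, and the libraries were enriched for poly(A). The part of this in the low counts of ND6 was not tested.

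**Figure D2:**
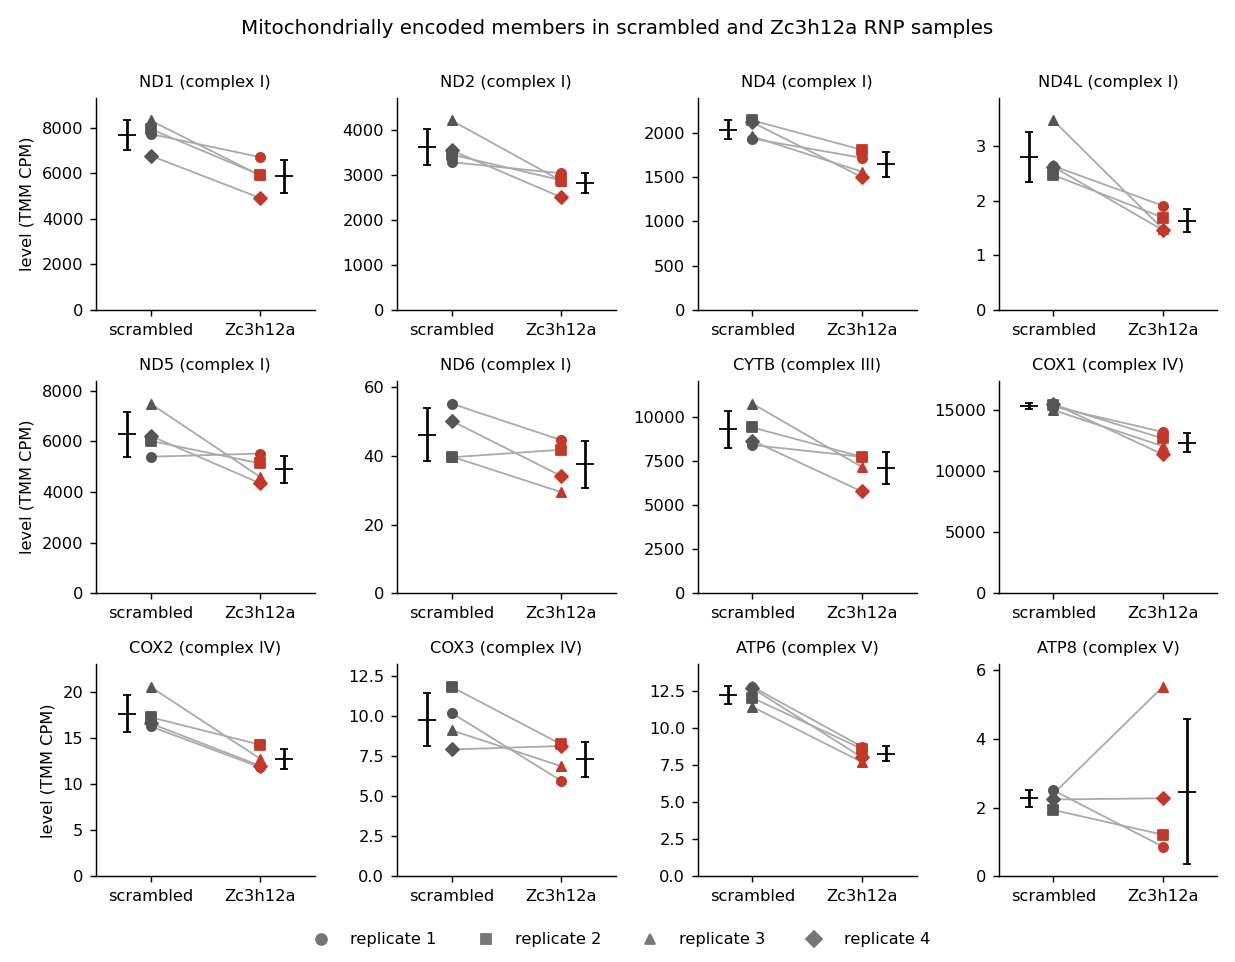
Level of each mitochondrially encoded member (y axis, TMM-normalized CPM from 0) in scrambled and *Zc3h12a* RNP samples, with lines joining samples of the same replicate number, symbols for the number, and the mean with its SD (n = 4) at the side. The lines go down in all 4 pairs for ND1, ND2, ND4, ND4L, CYTB, COX1, COX2 and ATP6, and in 3 pairs for ND5, ND6 and COX3, while those of ATP8 part.

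The remaining members, COX2, COX3, ATP6, ATP8 and ND4L, had levels that were lower by orders of magnitude, although they lie on the same precursor as COX1 and ND4. Per kilobase of gene, COX1 was at 8928 CPM and CYTB at 7146, whereas COX2 was at 22.1, ATP6 at 15.05, ATP8 at 11.7, COX3 at 10.8 and ND4L at 7.42 CPM (means over 8 samples, scaled to the total count). These 5 genes lie inside a stretch of mitochondrial DNA (positions 6390 to 11042) that also stands in the nuclear genome at chr1:24650616-24655269 on the minus strand (GRCm39), with 99.9% identity over 4654 aligned bases, 2 mismatches and 1 gap. All of their 50-base stretches, the length of the reads, occur unaltered in nuclear DNA, as do 51.1% of those of COX1, 62.2% of ND4, 8.29% of ND2 and 7.61% of ND5. For ND1, CYTB and ND6 the share was 0%. How reads with several equal matches were counted is not given in the sources used here. The part of the nuclear copies in the low counts of these 5 genes was not tested, and their levels are uncertain. COX1 and ND4 had 731 and 502 50-base stretches without a nuclear copy, so their levels and shares of the mitochondrial counts are uncertain too. Per 1000 such stretches, COX1 was at 18870 CPM, CYTB at 7466, ND4 at 3661 and ND5 at 3397.

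ATP8, which encodes a small membrane subunit of complex V, shows how complete the copy is. Its whole reading frame stands letter for letter in both places, at positions 7766 to 7969 of the mitochondrial genome and at chr1:24653690-24653893 on the minus strand. The sequence is printed to show that its letters alone cannot tell the places apart.
ATP8, both places: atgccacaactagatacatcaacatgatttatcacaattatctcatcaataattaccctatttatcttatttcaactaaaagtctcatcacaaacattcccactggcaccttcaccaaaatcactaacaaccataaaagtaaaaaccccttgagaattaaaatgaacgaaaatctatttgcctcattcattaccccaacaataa
One of the 2 mismatches lies near the start of ND3, the gene just outside the level for membership, and is printed in a capital with 30 bases on each side.
Mitochondrial genome, 9431 to 9491: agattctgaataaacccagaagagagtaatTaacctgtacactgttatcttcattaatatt
Nuclear copy, chr1:24652168-24652228, minus strand: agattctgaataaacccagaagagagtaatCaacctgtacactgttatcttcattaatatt

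**Figure D3:**
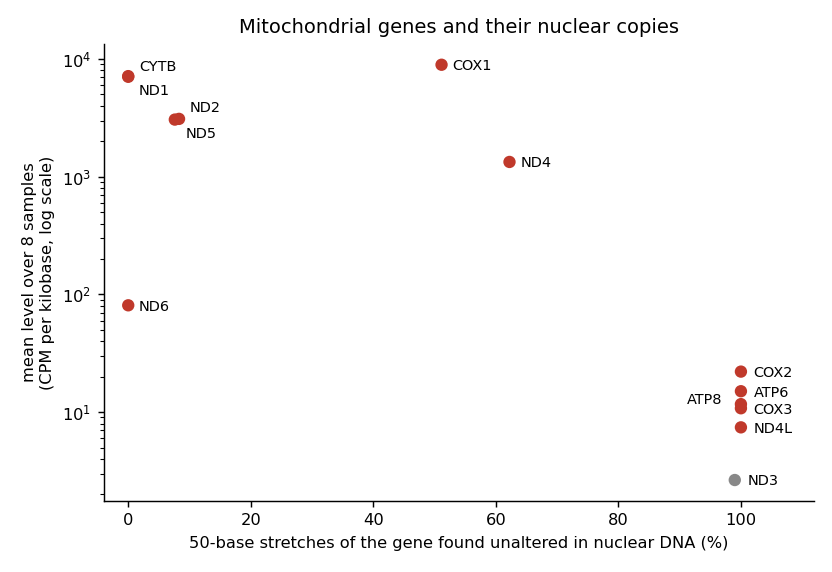
Mean level of the 13 mitochondrial protein-coding genes (y axis, CPM per kilobase, log scale) against the percentage of their 50-base stretches found unaltered in nuclear DNA (x axis), with ND3, which is not a member, in gray. The genes at 99% to 100% lie at 2.65 to 22.1 CPM per kilobase, ND6 without a copy lies at 80.8, and the other 6 lie between 1334 and 8928.

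Of the 5 members inside the copy, ATP6, COX2, COX3 and ND4L were lower on average, and ATP8 was not. ATP6, the proton channel subunit of complex V, had 188 to 404 counts per sample. It was at 12.8, 12.1, 11.5 and 12.7 CPM in scrambled RNP samples against 8.77, 8.62, 7.73 and 8.05 CPM, with no overlap and a log2 fold change of -0.56 ± 0.10 (SE, adjusted p = 0.427, edgeR's quasi-likelihood test). COX2, which takes electrons from cytochrome c, was at 16.2, 17.2, 20.5 and 16.6 CPM against 11.8, 14.3, 12.7 and 11.98 CPM, and its groups did not overlap either. Its log2 fold change was -0.47 ± 0.098 (SE, adjusted p = 0.440, edgeR's quasi-likelihood test).

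COX3, a structural core subunit of complex IV, had a log2 fold change of -0.42, or -0.25 without replicate 1, and was lower in 3 of 4 pairs. ND4L was at 2.47 to 3.47 CPM against 1.46 to 1.91 CPM, with an unadjusted p of 0.0816, from 36 to 88 counts per sample. ATP8 gave no stable direction. It was at 2.504, 1.93, 2.40 and 2.24 CPM in scrambled RNP samples and at 0.867, 1.21, 5.51 and 2.27 CPM in *Zc3h12a* RNP samples, so its mean was higher although its fitted log2 fold change was -0.24 (unadjusted p = 0.668 in edgeR's quasi-likelihood test). The reading frames of ATP8 and ATP6 overlap, and how reads from the shared bases were counted is not given in the sources used here.

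Summed over the 12 members, the mitochondrial level was at 42139, 44494, 47836 and 42939 CPM in scrambled RNP samples and at 38011, 36253, 34221 and 30489 CPM in *Zc3h12a* RNP samples. No *Zc3h12a* RNP sample reached the lowest scrambled RNP sample. Within pairs 1 to 4 the ratio of *Zc3h12a* RNP to scrambled RNP was 0.902, 0.815, 0.715 and 0.710, so that pairs 3 and 4 differed more than pair 1. As a share of all counts, the mitochondrial genes took 4.14%, 3.93%, 4.67% and 4.602% in scrambled RNP samples and 3.91%, 3.49%, 3.51% and 3.29% in *Zc3h12a* RNP samples, a mean difference of -0.785 ± 0.532 percentage points (SD over 4 pairs). The 95% Wilson intervals of these shares, which cover counting error only, were at most 0.0185 percentage points wide. A lower mitochondrial share can be a smaller number of transcripts per organelle or cell, or a larger pool of other poly(A) RNA, and these cannot be told apart in bulk counts.

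Within the mitochondrial counts, the abundant genes kept similar shares. COX1 took 34.6% ± 2.29 of them with scrambled RNP and 35.6% ± 1.18 with *Zc3h12a* RNP (SD, n = 4), CYTB 21.0% ± 1.16 and 20.4% ± 1.06, and ND5 14.1% ± 1.24 and 14.1% ± 0.462. For these 3 genes the difference was smaller than the SD within either group. Among the rare transcripts, ND4L took 0.00628% ± 0.000709 and 0.00470% ± 0.000289, without overlap of the groups, and ATP6 0.0278% ± 0.00290 and 0.0240% ± 0.00170, and both differences were larger than the SD within either group.

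Other measures were compared beside the mitochondrial level. The 20 most counted genes of a sample, some of them mitochondrial, took 14.3% to 15.8% of its counts with scrambled RNP and 13.2% to 14.9% with *Zc3h12a* RNP, and were lower in 4 of 4 pairs. Among the 86 other genes with a mean of 1000 CPM or more, 66 had a log2 fold change below 0 and 19 were lower in 4 of 4 pairs, with a median of -0.08, where 6299 of 14934 genes tested were below 0 and 8.54% were lower in 4 of 4 pairs. At an unadjusted p at or under 0.05 in edgeR's test, 14 of the 86 were lower and 0 higher, where 4.08% and 2.12% of all genes tested were. The medians of these 86 genes in pairs 1 to 4 were -0.07, -0.16, -0.09 and -0.02, smallest in pair 4, where the mitochondrial median was -0.50. This cut at 1000 CPM was chosen after the data were seen. The mast cell markers were lower by 0.30 and 0.29 (log2) in pairs 1 and 2 and differed by 0.01 and -0.07 in pairs 3 and 4, where the mitochondrial genes differed most. The mitochondrial members have 31.9% to 41.1% GC against a median of 49.6% over the genes tested, and with a correction of each sample for GC content their median log2 fold change was -0.53. The part of these measures in the mitochondrial result was not tested.

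The direction of the nuclear subunits differed between replicate pairs. In pairs 1 and 2 most of them were lower after *Zc3h12a* RNP, 62 and 71 of 80, with median log2 differences of -0.12 and -0.17. In pairs 3 and 4 most were higher, 66 and 56 of 80, with medians of 0.24 and 0.12. The medians over all genes tested were between -0.06 and 0.03 in the 4 pairs. Without replicate 3 the median fold change of the nuclear subunits was -0.10, and without replicate 2 it was 0.15.

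**Figure D4:**
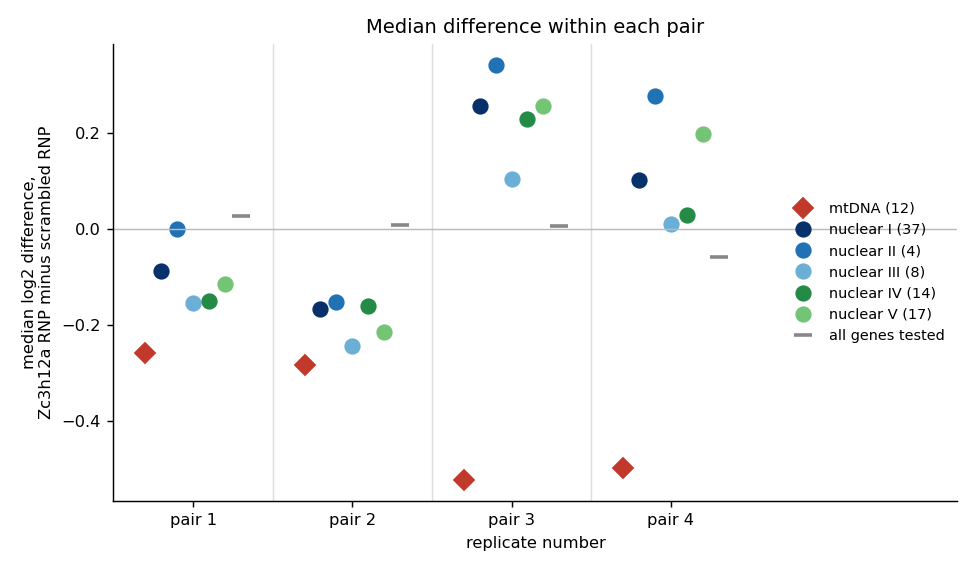
Median log2 difference, *Zc3h12a* RNP minus scrambled RNP (y axis), within each replicate pair (x axis) for the mitochondrially encoded members (diamonds), for the nuclear subunits of each complex (circles, number of genes in brackets) and for all genes tested (dashes). The diamonds lie at -0.26, -0.28, -0.52 and -0.50, and the circles lie at or below 0.00 in pairs 1 and 2 and above 0 in pairs 3 and 4. For the 6 mitochondrial members with the most counts alone, the medians in pairs 1 to 4 were -0.145, -0.271, -0.523 and -0.498. For the 6 with few counts, 5 of them of uncertain level, they were -0.498, -0.498, -0.498 and -0.509. Nuclear complexes III and IV were at -0.153 and -0.150 in pair 1, as low as the 6 with the most counts.

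The extreme values lay in few samples. Scrambled RNP sample 4 held the lowest value of the 8 samples for 59 of 88 nuclear members, and *Zc3h12a* RNP sample 4 held it for 22. Scrambled RNP sample 2 held the highest value for 51, and *Zc3h12a* RNP sample 3 for 20. Summed over the nuclear subunits, the level was 7793, 8939, 7185 and 5253 CPM in scrambled RNP samples and 7301, 7620, 7949 and 5617 CPM in *Zc3h12a* RNP samples. The same scrambled RNP samples 2 and 4 lay at the 2 ends of the first principal component of all genes, which held 65.7% of the variance. The median nuclear member spanned a 1.81-fold range over the 8 samples.

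The ratio of mitochondrial to nuclear counts was lower after *Zc3h12a* RNP in 4 of 4 pairs. It was 5.34, 4.93, 6.57 and 8.07 in scrambled RNP samples and 5.14, 4.70, 4.25 and 5.35 in *Zc3h12a* RNP samples. The groups overlapped, because the ratio of scrambled RNP samples 1 and 2 was below that of *Zc3h12a* RNP sample 4. In pairs 1 and 2 the ratio differed by -0.200 and -0.223, and in pairs 3 and 4 by -2.32 and -2.71.

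In complex I, which oxidises NADH, 25 of 37 nuclear subunits had a log2 fold change above 0 and 12 below, with a median of 0.03 and a range of -0.27 to 0.24. Among the subunits of the peripheral arm that carry electrons, chosen here for their role, *Ndufs1* was at 65.8 ± 10.6 and 69.0 ± 5.38 CPM in scrambled and *Zc3h12a* RNP samples (SD, n = 4) and *Ndufv1*, which binds NADH, at 48.4 ± 13.02 and 48.4 ± 5.77 CPM. The lowest unadjusted p belonged to *Ndufa6* (chr15:82234340-82238523), an accessory subunit that binds the mitochondrial acyl carrier protein. It was at 93.3, 96.7, 90.7 and 90.9 CPM in scrambled RNP samples and at 72.9, 78.4, 88.0 and 69.4 CPM in *Zc3h12a* RNP samples. The groups did not overlap, though *Zc3h12a* RNP sample 3 came close to the scrambled RNP samples, and the log2 fold change was -0.27 ± 0.084 (SE, adjusted p = 0.660, edgeR's quasi-likelihood test). *Ndufa1*, a small membrane-arm subunit encoded on the X chromosome, was lower by similar steps in 4 of 4 pairs, 127, 146, 153 and 85.8 CPM against 111, 130, 138 and 75.3 CPM. Its groups overlapped widely, and its log2 fold change was -0.18 (adjusted p = 0.757, edgeR's quasi-likelihood test), with -0.11 under library sizes only and -0.30 with a correction for length.

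The 8 assembly factors of complex I, which help to build the complex and are not part of it, had a median log2 fold change of 0.03. *Ndufaf5*, which modifies *Ndufs7*, was at 5.26, 6.90, 5.20 and 2.81 CPM against 5.79, 5.85, 7.65 and 6.01 CPM, and its log2 fold change of 0.38 (unadjusted p = 0.176 in edgeR's quasi-likelihood test) goes with a low value in scrambled RNP sample 4. It was 0.15 without replicate 4 and 0.64 without replicate 2. *Ndufaf2*, a late assembly factor, was at 15.5 ± 5.02 and 16.0 ± 4.79 CPM (SD, n = 4).

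Complex II has no mitochondrially encoded subunit and joins the chain to the citric acid cycle. *Sdha*, its flavoprotein, was at 215 ± 19.0 CPM with scrambled RNP and 209 ± 16.8 CPM with *Zc3h12a* RNP (SD, n = 4), a log2 fold change of -0.05. *Sdhb*, the iron-sulfur subunit, was at 63.6, 80.8, 48.2 and 31.4 CPM against 62.8, 70.5, 68.2 and 48.2 CPM. It was lower in pairs 1 and 2 and higher in pairs 3 and 4, as was *Sdhd*, 1 of the 2 membrane anchors, with 87.4, 89.7, 53.8 and 42.6 CPM against 74.3, 83.8, 74.3 and 56.2 CPM. *Sdhc*, the other anchor, was at 56.3 ± 8.85 and 58.6 ± 6.02 CPM. The log2 fold changes were 0.22, 0.13 and 0.07 for *Sdhb*, *Sdhd* and *Sdhc*, and the lowest unadjusted p of the 4 genes was 0.170. The directions of *Sdha*, *Sdhc* and *Sdhd* turned when 1 replicate was left out, and *Sdhb* ranged from 0.07 without replicate 3 to 0.42 without replicate 2.

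In complex III, which passes electrons to cytochrome c, 5 of 8 nuclear subunits were below 0, with a median of -0.08. *Uqcrb*, which helps to form the quinone site, was at 74.1, 87.6, 92.4 and 59.6 CPM in scrambled RNP samples and 65.2, 70.4, 87.6 and 51.0 CPM in *Zc3h12a* RNP samples. *Uqcrh*, the hinge protein beside cytochrome c1, was at 132, 165, 160 and 144 CPM against 114, 149, 155 and 113 CPM. Both were lower in 4 of 4 pairs with overlapping groups, and their log2 fold changes were -0.20 and -0.19 (adjusted p = 0.722 and 0.790, edgeR's quasi-likelihood test). *Uqcrb* was at -0.10 without replicate 2, and *Uqcrh* at -0.29 without replicate 3. For *Uqcrb*, 58.7% of its 50-base stretches occur elsewhere in the genome, and how such reads were counted is not given, so its level is uncertain.

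In complex IV, which reduces oxygen, *Cox7a2l* had the lowest unadjusted p of all 88 nuclear members. It encodes SCAF1, which joins complex III and complex IV into a supercomplex, and the C57BL/6 strain is known to carry a shortened form of it. *Cox7a2l* (chr17:83765970-83824759) was at 201, 220, 181 and 195 CPM in scrambled RNP samples and at 168, 168, 151 and 139 CPM in *Zc3h12a* RNP samples. The groups did not overlap, each pair was lower by 0.26 to 0.48 on the log2 scale, and the log2 fold change was -0.35 ± 0.076 (SE, unadjusted p = 0.00206, adjusted p = 0.443, edgeR's quasi-likelihood test). Of its 50-base stretches, 46.8% occur elsewhere in the genome. The other 13 nuclear subunits lay on both sides of 0. *Ndufa4*, which was long listed with complex I and is a subunit of complex IV, was at 55.2, 72.2, 52.0 and 28.1 CPM against 55.2, 68.7, 72.9 and 43.9 CPM, a log2 fold change of 0.26 (unadjusted p = 0.0903) that ranged from 0.13 without replicate 3 to 0.43 without replicate 2.

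Several complex IV subunits exist as ubiquitous and tissue-restricted forms, and BMMCs used the ubiquitous ones. *Cox4i1* was at 246 ± 46.1 and 225 ± 29.4 CPM (SD, n = 4) in the scrambled and *Zc3h12a* RNP groups, while *Cox4i2*, the form of lung and low oxygen, had 0 to 2 counts per sample. *Cox6a1* was at 129 ± 40.5 and 128 ± 22.02 CPM, and its heart and muscle form *Cox6a2* had 0 to 12 counts. *Cox8a* was at 144 ± 50.7 and 143 ± 26.2 CPM, while *Cox8b* and *Cox8c* had at most 1 and 4 counts. *Ndufa4l2*, the hypoxia-induced relative of *Ndufa4*, had 1 count in all 8 samples together. Per kilobase of the canonical transcript, *Cox6b1* was at 181 CPM and its testis form *Cox6b2* at 8.72, and *Cox7a2* at 73.8 and its muscle form *Cox7a1* at 3.39 (means over 8 samples). With the median length of the coding transcripts, *Cox7a2* was at 11.6 and *Cox7a1* at 3.42 CPM per kilobase, so the size of this gap depends on the length used. In CPM, *Cox7a1* was at 1.68, 1.499, 2.09 and 2.14 CPM against 1.11, 0.910, 1.52 and 1.01 CPM after *Zc3h12a* RNP. At this low level the log2 fold change of *Cox7a1* was -0.71, lower in 4 of 4 pairs (unadjusted p = 0.155, edgeR's quasi-likelihood test).

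In complex V, 12 of 17 nuclear subunits had a log2 fold change above 0, with a median of 0.02. *Atp5k*, subunit e, which helps ATP synthase to form dimers, was the only member with an unadjusted p at or under 0.05 in the upward direction. It was at 24.3, 31.4, 27.8 and 15.7 CPM in scrambled RNP samples and 25.8, 35.7, 35.5 and 19.8 CPM in *Zc3h12a* RNP samples, higher in 4 of 4 pairs with overlapping groups, and its log2 fold change was 0.24 ± 0.086 (SE, adjusted p = 0.702, edgeR's quasi-likelihood test). It was 0.15 without replicate 3 and 0.10 with a correction for length. The catalytic subunit *Atp5b* was at 873, 1006, 707 and 455 CPM against 856, 816, 789 and 608 CPM, and its partner *Atp5a1* ran with it, at 895, 1019, 720 and 550 CPM against 857, 847, 789 and 631 CPM. Both were lower in pairs 1 and 2 and higher in pairs 3 and 4. The membrane ring of ATP synthase is built from 1 peptide that 3 genes encode. *Atp5g1* was at 39.1 ± 10.8 and 46.9 ± 12.02 CPM (SD, n = 4), *Atp5g2* at 57.3 ± 19.7 and 61.8 ± 8.64 CPM and *Atp5g3* at 102 ± 34.4 and 101.3 ± 22.03 CPM. Of the 50-base stretches of *Atp5g1* and *Atp5g2*, 84.4% and 88.4% occur elsewhere in the genome, so the division of reads among these genes and their copies is uncertain.

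The order of levels among the nuclear members was taken per kilobase of transcript, with the canonical transcript and with the median length of the coding transcripts, and an order is given where both agree. The most abundant nuclear subunits were *Atp5b* and *Atp5a1*, at 397 and 319 CPM per kilobase of the canonical transcript, followed by *Cox4i1* with 301. The median was 35.3 for complex I, 36.9 for complex II, 53.1 for complex III, 139 for complex IV, 94.3 for complex V and 5.59 CPM per kilobase for the assembly factors. At the low end of each complex stood *Ndufs4* with 3.02, *Sdhb* with 14.7, *Uqcr11* with 24.5, *Cox7a1* with 3.39 and *Atp5j* with 23.5 CPM per kilobase. Both lengths come from 1 annotation, which may differ from that used for counting. In CPM not divided by length, *Ndufc1* (7.04) was below *Ndufs4* (12.2), *Sdhc* (57.4) below *Sdhb* (59.2) and *Uqcr10* (41.5) below *Uqcr11* (67.3). Likewise *Atp5k* (27.0) was below *Atp5j* (85.1), while *Cox7a1* (1.49) was still the lowest of complex IV. Among the 4 genes of complex II the order was *Sdha* with 69.0, *Sdhd* with 55.9, *Sdhc* with 17.9 and *Sdhb* with 14.7. *Atp5md* and *Atp5mpl* were not found in the annotation and have no length.

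**Figure D5:**
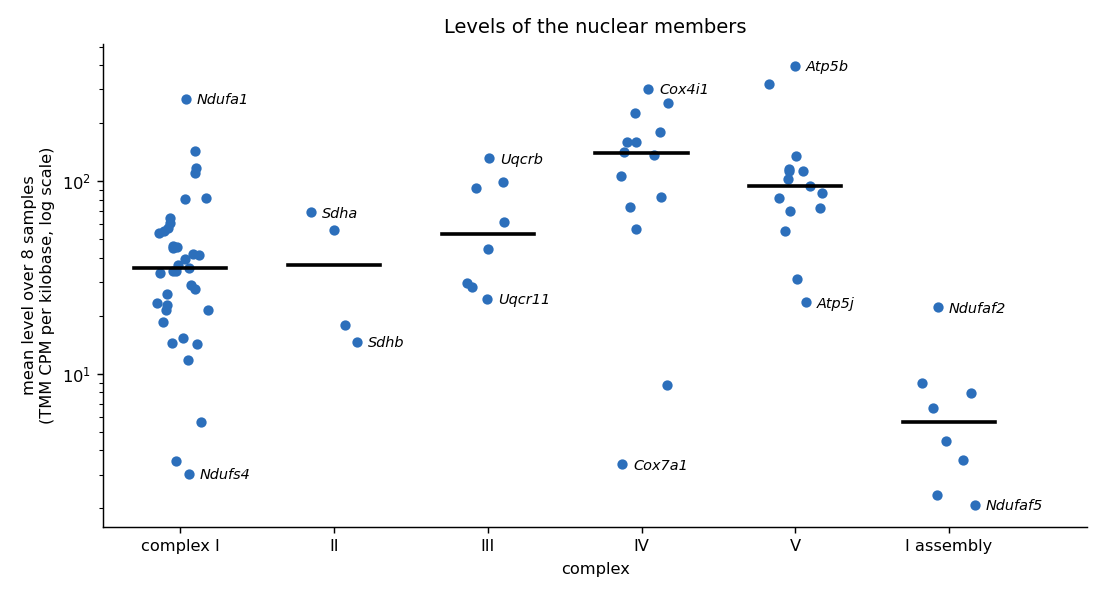
Mean level over the 8 samples of each nuclear member (y axis, TMM-normalized CPM per kilobase of the canonical transcript, log scale) by complex (x axis), with a bar at the median and the names of the highest and the lowest gene. Complexes IV and V have the highest medians, 139 and 94.3, and the lowest subunits of complexes I and IV are *Ndufs4* and *Cox7a1*.

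The promoters of the nuclear subunits were searched for words of known respiratory factors. NRF1, the ETS family factor GABP and YY1 are known to bind promoters of respiratory genes. In RefSeq promoters that span 250 bases before to 50 after a start (GRCm38.p6), which were found for 68 of 80 nuclear subunits, the NRF1 word GCGCATG stood on either strand in 19.1%, the ETS word CCGGAAG in 25.0% and the YY1 word AAGATGG in 16.2%. Over the 11644 tested genes with a promoter the shares were 7.25%, 18.2% and 8.12%, and over all 27025 promoters 4.41%, 9.93% and 7.28%. These are descriptions without a test, and a word is not a site that was shown to be bound.

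The promoters of 4 nuclear members are printed, the 2 whose groups did not overlap (*Cox7a2l* and *Ndufa6*), the 1 that was higher (*Atp5k*) and 1 of complex III (*Uqcrh*). Each line gives the last 150 bases before the start, on the gene's strand, with the searched words in capitals. In these windows *Ndufa6* and *Atp5k*, which went in opposite directions, both hold the NRF1 word, which in *Atp5k* overlaps itself on the 2 strands. *Uqcrh* holds the ETS word, and none of the 3 words stands in the window of *Cox7a2l*. The searched promoter of *Atp5k* holds the ETS word as well, outside the printed bases.
*Cox7a2l*, chr17:83514334-83514483, minus strand: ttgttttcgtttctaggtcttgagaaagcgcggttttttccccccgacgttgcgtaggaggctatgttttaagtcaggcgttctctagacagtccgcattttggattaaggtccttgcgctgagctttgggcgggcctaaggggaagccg
*Ndufa6*, chr15:82354292-82354441, minus strand: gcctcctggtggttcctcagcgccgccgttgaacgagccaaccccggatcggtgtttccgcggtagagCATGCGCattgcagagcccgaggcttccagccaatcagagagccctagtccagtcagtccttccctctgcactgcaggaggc
*Atp5k*, chr5:108434400-108434549, minus strand: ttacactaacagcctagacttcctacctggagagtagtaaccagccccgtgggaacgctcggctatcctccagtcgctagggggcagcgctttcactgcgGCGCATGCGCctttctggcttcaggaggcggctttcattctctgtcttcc
*Uqcrh*, chr4:116075071-116075220, minus strand: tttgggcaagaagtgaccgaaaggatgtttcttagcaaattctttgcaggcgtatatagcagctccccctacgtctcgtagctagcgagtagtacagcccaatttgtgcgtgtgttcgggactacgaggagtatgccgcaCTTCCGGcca

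Among genes around the respiratory chain none passed the test. In the lists tested (assembly factors of each complex, electron carriers and coenzyme Q synthesis, replication and transcription of mitochondrial DNA, processing of its RNA, regulators of biogenesis, citric acid cycle and mitochondrial ribosome), 0 genes passed the adjusted p in edgeR's test. *Tfam*, which packs the DNA and starts transcription, was at 27.7 ± 4.02 and 27.2 ± 4.39 CPM (SD, n = 4), and *Polrmt*, the polymerase, at 10.8 ± 3.07 and 10.9 ± 5.46 CPM. Of 16 genes in this list, 4 were lower and 0 higher in 4 of 4 pairs, where 8.54% and 4.98% of all genes tested were. At an unadjusted p at or under 0.05, 1 of the 16 was lower, where 4.08% of all genes tested were, so this second count is near its background. The gene at this p was *Ssbp1*, named after its value was seen, the single-stranded DNA-binding protein of the replication fork, with 37.7 ± 8.76 and 30.2 ± 4.42 CPM, lower in 4 of 4 pairs and with a log2 fold change of -0.31 (adjusted p = 0.587, edgeR's quasi-likelihood test).

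Among the 20 genes of mitochondrial RNA processing and stability, 14 were above 0, 0 passed an unadjusted p of 0.05, and the median was 0.06. In 4 of 4 pairs 4 of the 20 were higher and 2 lower, where 4.98% and 8.54% of all genes tested were. *Lrpprc*, which protects mitochondrial mRNAs and supports their polyadenylation, was at 51.8 ± 6.91 and 57.7 ± 3.44 CPM, with a higher value after *Zc3h12a* RNP in 4 of 4 pairs, and its partner *Slirp* at 11.2 ± 0.652 and 12.9 ± 4.27 CPM. Among 12 tested regulators of biogenesis 6 were above and 6 below 0, with *Nrf1* at 38.6 ± 4.76 and 40.2 ± 3.78 CPM and *Gabpa* at 81.4 ± 16.8 and 74.2 ± 13.6 CPM.

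The assembly factors outside the symbol rule gave 1 gene each at an unadjusted p at or under 0.05 for complexes I, III, IV and V, all lower in 4 of 4 pairs, where 4.08% of all genes tested were lower at this p and 8.54% were lower in 4 of 4 pairs. With 1 gene in each of these short lists, nothing is read from the counts. Named after their values were seen, they were *Dmac2* (-0.24 on the log2 scale), *Uqcc3* (-0.24), *Pet100* (-0.24) and *Tmem242* (-0.25), of 13, 6, 23 and 5 tested genes, and complex II had 0 of 4. The 77 tested genes of the mitochondrial ribosome had a median of 0.02, and *Mrpl23*, also named after its value was seen, was lower at an unadjusted p of 0.0397 (log2 fold change -0.22). Without replicate 2, *Mrpl23* was at -0.09 and *Tmem242* at -0.12. The medians of the 77 genes of the mitochondrial ribosome in pairs 1 to 4 were -0.03, -0.20, 0.23 and 0.11, beside -0.12, -0.17, 0.24 and 0.12 for the nuclear subunits. The citric acid cycle (18 genes, median 0.03) and the electron carriers with coenzyme Q synthesis (20 genes, median 0.06) had 0 genes at an unadjusted p at or under 0.05.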

How the data were processed

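RNA was enriched for poly(A) and sequenced with paired 50-base reads. The authors checked reads with FastQC 0.11.9, mapped them to GRCm39 with HISAT2 2.2.1 and deposited 1 file of raw gene counts per sample from featureCounts 2.0.1. The study's batch correction is not part of these whole-number counts. The total count was 19610240 to 33986762 per sample, and intervals cover counting error only.

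From the deposited counts, edgeR 4.0.16 (R 4.3.3) gave TMM-normalized CPM and quasi-likelihood tests over all 14934 genes that passed filterByExpr, with the replicate number as a block and Benjamini-Hochberg adjustment. The code was tested on simulated data. Genes were called at an adjusted p at or under 0.05 and a log2 fold change beyond 0.5. DESeq2 1.42.0 and limma 3.58.1, other normalizations and filters, corrections for GC and length, no block, and leaving out each replicate were alternatives.

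The labels number the samples 1 to 4 in each group, and the design text says that cells of 4 mice received both RNPs. Over all genes tested, same-numbered samples correlated in their deviations from the group means at 0.595, 0.0752, 0.624 and 0.0414, and over the 9668 genes with a mean log2 CPM above 2 at 0.756, 0.717, 0.728 and 0.719. The first measure did not put every pair above 0.1, and pairs 2 and 4 lay below the highest correlation between different numbers, 0.398. Over the 9668 genes the highest between different numbers was 0.137. Over the 88 nuclear members the pairs were at 0.216, 0.702, 0.579 and 0.652. There the highest between different numbers was 0.224, so pair 1 did not stand above it.

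Genes named with statistics were all mitochondrial members, the 4 *Sdh* genes, the 2 lowest unadjusted p among nuclear members of each of complexes I, III, IV and V and of the assembly factors, isoform sets and, for levels, the highest and lowest genes of a complex. Others are named with their role or said to be chosen after their values were seen. Members and lists were chosen with earlier results of these data known. Copies were sought with blast 2.17.0 and by exact 50-base matches in GRCm39. Of the 24059 symbols, 1330 were not found in the annotation.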

Additional observations from a re-analysis of the deposited data

Results flagged for a closer look

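In 6 of 88 groups of 4 samples examined, 1 sample stood apart by Dixon's test, in which the gap to the nearest sample is divided by the whole range and compared with the critical value for 4 samples. Chance gives about 1 in 20 groups, or 4.4 of these, so 6 is near that number. ND4L in scrambled RNP samples had a ratio of 0.834, with replicate 3 at 3.47 CPM above 2.47 to 2.63. *Ndufaf5* in *Zc3h12a* RNP samples had a ratio of 0.884, with replicate 3 at 7.65 CPM above 5.79 to 6.01. *Zc3h12a* in scrambled RNP samples had a ratio of 0.846, with replicate 1 at 24.9 CPM below 37.1 to 39.3. *Tmem242* in scrambled RNP samples had a ratio of 0.840, with replicate 4 at 37.0 CPM below 43.4 to 44.6. The summed complex I assembly factors in scrambled RNP samples had a ratio of 0.858, with replicate 4 at 70.0 CPM below 91.9 to 95.6. The summed nuclear subunits of complex V in *Zc3h12a* RNP samples had a ratio of 0.912, with replicate 4 at 2363 CPM below 3113 to 3186.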

How the results depend on the processing

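The mitochondrial median stayed below 0 under every alternative run, from -0.31 with library sizes only to -0.53 with the replicate block and GC correction, and the difference from the nuclear median ran from -0.29 without replicate 3 to -0.52 without replicate 1. Members at an adjusted p at any fold change numbered 4 in DESeq2's Wald test and 0 elsewhere. Over all genes, 75 of 14934 passed in DESeq2's Wald test, 156 of 15082 without replicate 2 and 47 of 23473 without a low-count filter. The other fits passed at most 11 genes, with the length correction. The 16 members at an unadjusted p at or under 0.05 became 8 without a low-count filter, 8 with the replicate block and GC correction, 8 with the replicate block and length correction and 9 with no replicate block, and ranged from 7 to 15 when 1 replicate was left out. No share of all genes at this p is given for these fits. With no replicate block the medians were -0.37 and 0.01, and 11 of 12 mitochondrial members were lower.

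Some fold changes turned their direction. ATP8 was at 0.12 with no replicate block and from -0.77 to 0.24 when 1 replicate was left out. *Sdha* was at 0.0226 with library sizes only and from -0.0742 to 0.0573 with 1 replicate left out, *Sdhc* at -0.0514 with GC correction, -0.017 with length correction and from -0.0401 to 0.194 with 1 left out, and *Sdhd* from -0.0354 to 0.297. *Ndufaf2* was at -0.0577 with GC correction and -0.0469 with length correction. *Zc3h12a* was at 0.0046 with library sizes only and from -0.0754 to 0.0062 with 1 left out. The causes were not tested. Library sizes only moved the median of all genes to 0.11. The share of counts without mitochondrial rRNA was not run, since no such symbols were matched. The lowest counts per sample were those of *Cox7a1* (21 to 53), ATP8 (25 to 134) and ND4L (36 to 88).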
